A study of Oryza sativa with 2 samples.

Results

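The cytokinin response regulators are the proteins at the end of the relay that carries the cytokinin signal in plant cells. In the rice gene table, 19 genes carried a name of the form RR with a number, with Os or O in front allowed. Of these, 13 had a probe set listed for that gene alone, against 17905 genes with such a probe set in all. RNA came from endosperm of Zhonghua11, a japonica rice cultivar with no transgene or mutation named in the labels, picked by hand under a dissecting microscope 2 days after pollination and kept in ethanol on ice. The plants had grown in a phytotron, at 28 °C during the 12 h light period and at 22 °C during the 12 h dark period. The series holds 1 group of 2 samples, with an Affymetrix rice array for each, and its purpose was to profile endosperm before its cells form. Since no other tissue, stage or treatment was measured, the results are levels and how far 2 arrays differed. The labels do not say whether the samples came from separate plants, so this spread may be technical.

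Cytokinins are plant hormones that promote cell division. Receptor histidine kinases bind the hormone and pass a phosphate to small phosphotransfer proteins, which hand it on to response regulators. Type B response regulators carry a DNA-binding domain beside the phosphate-receiving domain and switch on target genes. Type A regulators are short, lack that DNA-binding domain, are among the genes that type B regulators switch on, and damp the signal. Type C regulators are short as well, but their genes are not among the rapid cytokinin targets. In cereal grains, cytokinin levels are known to peak soon after pollination, while endosperm nuclei divide.

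The members were sorted into types by the number in their name. By this rule 10 genes were type A, of which 6 were read (RR1, RR2, RR4, RR5, RR6 and RR9) and 4 had no single-gene probe set (RR7, RR10, RR11 and RR13). Of 7 type B genes, 5 were read (RR21, RR22, RR23, RR24 and RR33) and RR25 and RR27 were not. Both type C genes, RR41 and RR42, were read. The gene table also gives RRA or RRB names to some of these genes, and for RR27, RR33 and RR41 it gives an RRA name, which goes against the number. It further lists ORR1 to ORR5 as older names of RR21 to RR25, so that ORR1, for example, is RR21 and not RR1. Protein sequences were not used here, so the types rest on names alone. The genes were scattered: between any pair of members on the same chromosome lay at least 392 protein-coding genes of the table.

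A signal was called above background where it exceeded the 95th percentile of 64 probe sets against reporter and transgene sequences, which untransformed rice should lack. This limit was a linear signal of 52.7 on array 1 and 37.9 on array 2. Of the 13 regulators read, 10 were above background on both arrays, namely RR5, RR6, RR9, RR21, RR22, RR23, RR24, RR33, RR41 and RR42. That share, 76.9%, lay near the 74.1% of all 17905 genes that were above background on both arrays. By type, this held for 3 of 6 type A, 5 of 5 type B and 2 of 2 type C genes, numbers too small to set the types apart. By the RRA and RRB names instead, 5 of 6 and 4 of 4 genes read were above background, with RR2, RR4 and RR42 bearing neither name. Over the 13 genes the log2 signal had a median of 8.71, beside 8.58 over all genes read. Each member was read through 1 probe set. Signals of different probe sets are not compared as transcript amounts, because probes bind with different strength.

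**Figure D1:**
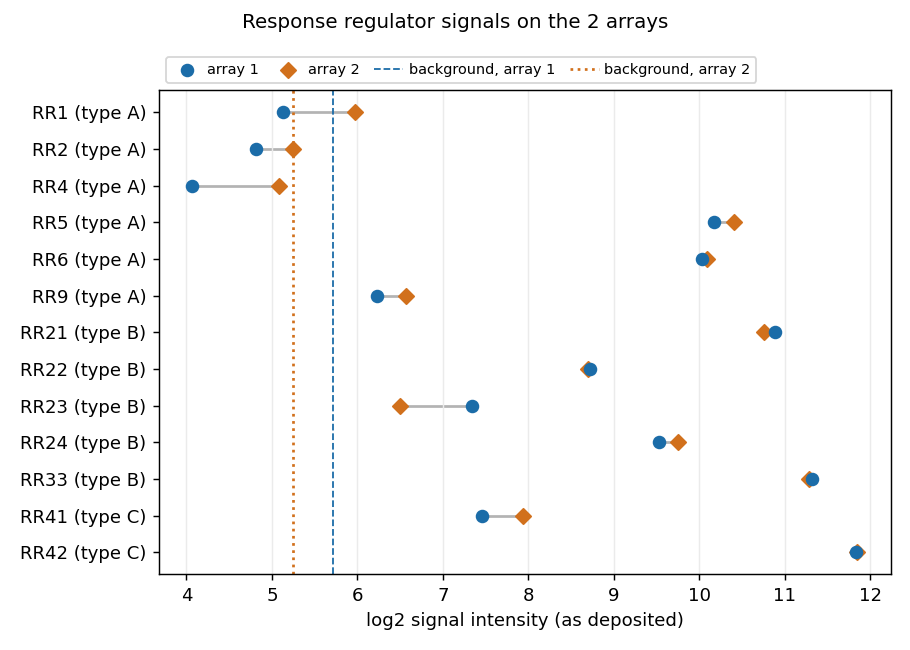
Log2 signal intensity (horizontal axis) of the 13 response regulators read (rows, with type by number) on array 1 (circles) and array 2 (diamonds), with each array's background as a vertical line. RR2 and RR4 lie to the left of each array's own background line, RR2 on array 2 only just, and RR1 does so on array 1 alone. RR5, RR6, RR9 and all type B and type C genes lie to the right of both lines.

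The type A genes fell into detected and undetected ones. RR6, whose overexpression makes rice less sensitive to cytokinin, had signals of 1048.5 on array 1 and 1091.9 on array 2 (LOC4337372, log2 mean 10.06 ± 0.04, SD, n = 2). RR5 had signals of 1156.7 and 1359.2 (LOC4336439, 10.29 ± 0.16, SD, n = 2). Both genes were thus far above background, RR6 by 19.9 and 28.8 times and RR5 by 21.9 and 35.9 times on arrays 1 and 2. They stood between the 85.2nd and the 87.4th percentile of the 57194 rice probe sets, which describes brightness and not transcript number.

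RR9 was closer to the limit, with signals of 75.0 and 94.8 (LOC4349747, 6.40 ± 0.24, SD, n = 2), or 1.42 and 2.50 times background. It did not exceed the highest single reporter probe set, at 92.3 and 98.7, on either array. RR9 and RR10 are known as closely related copies that act on salt tolerance, and RR10 had no single-gene probe set. How far the RR9 probe set also reads RR10 was not tested.

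RR1, RR2 and RR4 were not above background on both arrays. RR1, known to bind the flowering regulator Ehd1, had signals of 34.9 and 63.0 (LOC4335937, 5.55 ± 0.60, SD, n = 2), below background on array 1 and 1.66 times background on array 2. RR2, which the homeobox factor WOX11 represses in emerging crown roots, had 28.1 and 37.9 (LOC4329677, 5.03 ± 0.31, SD, n = 2). On array 2 it missed the limit narrowly, at 37.898 against 37.908. RR4 had 16.8 and 33.9 (LOC4325747, 4.58 ± 0.72, SD, n = 2), below background on both arrays. A signal below this limit bounds what these probe sets could detect and does not show that a transcript is absent. In Affymetrix names the ending _s_at, as for RR4, marks probes that may match several transcripts.

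All 5 type B genes read were above background on both arrays. RR21, RR22 and RR23 are known as overlapping positive regulators of the cytokinin response in rice. RR21 had signals of 1895.3 and 1734.0 (LOC4332111, 10.82 ± 0.09, SD, n = 2) and stood at the 90.0th and 89.3rd percentiles of rice probe sets. RR22, a gene whose loss of function raises salt tolerance, had 421.6 and 416.8 (LOC4340320, 8.71 ± 0.01, SD, n = 2). For both genes the arrays lay close together. RR23 was the exception in this group, with 162.7 on array 1 and 90.1 on array 2 (LOC4331008, 6.92 ± 0.60, SD, n = 2). Its signal was 3.09 and 2.38 times background, and on array 2 it lay under the highest reporter probe set.

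RR24, also known as LEPTO1 and needed for the start of meiosis in anthers, had signals of 741.8 and 859.5 (LOC4328516, 9.64 ± 0.15, SD, n = 2). RR33 had 2551.5 and 2504.5 (LOC4345758, 11.30 ± 0.02, SD, n = 2), at the 92.2nd and 92.0th percentiles of rice probe sets. Both were well above background on either array, RR24 by 14.1 and 22.7 times and RR33 by 48.4 and 66.1 times.

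Both type C genes were above background. RR42 had signals of 3661.4 and 3690.5 (LOC4335184, 11.84 ± 0.01, SD, n = 2), 69.4 and 97.4 times background, and lay at percentile 94.4 of rice probe sets on each array. RR41 had 175.7 and 246.1 (LOC4334066, 7.70 ± 0.34, SD, n = 2), 3.33 and 6.49 times background. The RR42 values thus hardly differed between the arrays, while those of RR41 did by 1.40-fold. The RR41 probe set, like that of RR4, is of the _s_at kind. A link of this to the gap was not tested.

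The spread between the arrays varied among the regulators. The SD between them had a median of 0.16 on the log2 scale over the 13 members, from 0.01 to 0.72, beside a median of 0.14 over all genes read. RR4, which was below background, differed by over 2-fold (log2 difference 1.01, array 2 minus array 1), a gap that 12.7% of all genes read showed in either direction. That gap fell to 0.61 with an offset of 16 added to the signals, under 2-fold. Among the 10 members above background on both arrays 0 did, beside 0.844% of the 13263 genes above background. The widest gap among these 10 was that of RR23, 1.81-fold lower on array 2 (log2 difference -0.85), and the next was that of RR41 (0.49).

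Each difference was set beside the 1000 rice probe sets nearest in mean signal, which show the spread to be met at that brightness. All 13 members lay inside the middle 95% of these differences. For RR23 that range ran from -1.03 to 0.75, and for RR1, with a difference of 0.85, from -1.73 to 1.23. For RR42, with a difference of 0.01, it ran from -0.32 to 0.36.

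**Figure D2:**
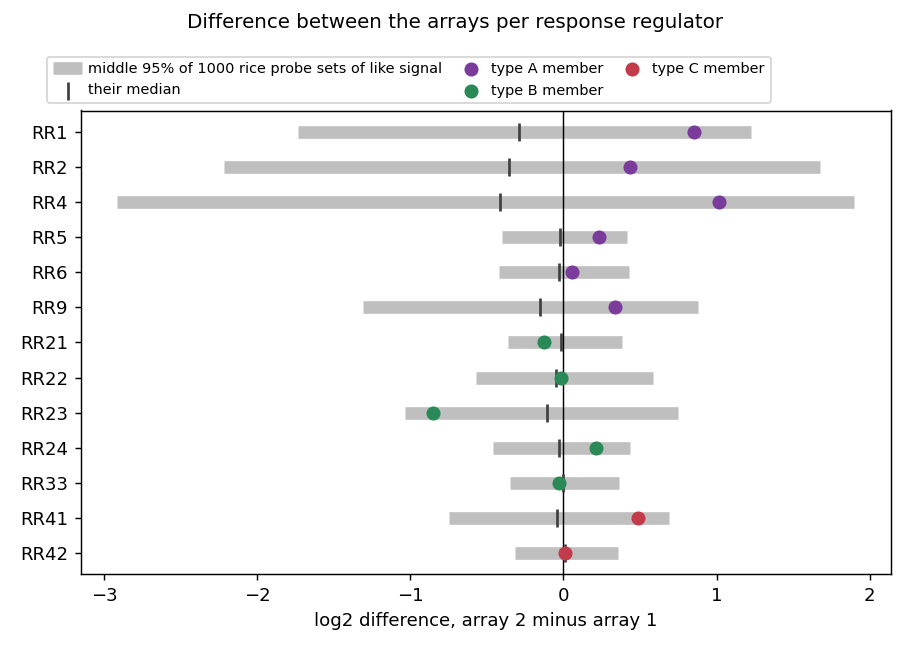
Log2 difference between the arrays, array 2 minus array 1 (horizontal axis), of each response regulator (coloured point, by type), beside the middle 95% (grey bar) and the median (tick) of the 1000 rice probe sets nearest in mean signal. The 6 type A points lie to the right of 0, RR23 lies farthest to the left, and every point falls within its bar.

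All 6 type A genes read were brighter on array 2, by log2 differences of 0.06 for RR6, 0.23 for RR5, 0.34 for RR9, 0.43 for RR2, 0.85 for RR1 and 1.01 for RR4. Over all genes read, 46.4% were brighter on array 2, and at the signal of these 6 genes the share among like probe sets ran from 34.6% to 45.8%. Of the 5 type B genes only RR24 was brighter on array 2 (0.21), and the differences of RR21 (-0.13), RR22 (-0.02) and RR33 (-0.03) were small. Both type C genes were brighter on array 2 too, as were 9 of the 13 members in all. By the RRA and RRB names, 5 of 6 and 1 of 4 genes read were brighter on array 2. RR1, RR2 and RR4, which hold the 3 widest type A differences, were not above background on both arrays, so the size of their differences is poorly known. The difference between the types was not tested, since the 2 arrays are of the same group. Array 2 was also the brighter one for added bacterial control transcripts, in 48 of 55 such probe sets above background, by a median log2 difference of 0.26, and their part in the type A values was not tested.

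The steps before the response regulators were read as well, from genes listed by role. Of 5 genes with receptor-type names, 4 were read and 2 were above background on both arrays, the cytokinin receptors HK3 (signals of 584.7 and 445.6, log2 mean 8.996 ± 0.277, SD, n = 2) and HK4 (279.5 and 262.8, 8.08 ± 0.06). The receptor HK5, in the probe set read, was below background on array 1, at 46.4, and above it on array 2, at 43.0. Its second probe set, of the _s_at kind, was above background on both arrays, at 173.9 and 153.9. CHARK, which joins a cytokinin-binding domain to a kinase of another class, was below background on both arrays, at 8.61 and 30.0. HK1, known from ethylene signalling, had no single-gene probe set.

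Of 5 phosphotransfer genes, the 3 read were above background on both arrays. AHP2 had signals of 6782.1 and 7400.6 (12.79 ± 0.09, SD, n = 2), and AHP1 had 1695.4 and 1855.4 (10.79 ± 0.09), with 8381.8 and 8637.6 in its second probe set. PHP5, a pseudo-phosphotransfer protein by name, a class that lacks the histidine that takes up the phosphate, had 1556.1 and 1485.7 (10.57 ± 0.05, SD, n = 2). PHP1 and PHP2 had no single-gene probe set. Over all roles listed here, supply, breakdown and clock genes included, 15 of 24 genes read were above background on both arrays. The share over all genes was 74.1%. By step, 2 of 4 receptor and 3 of 3 phosphotransfer genes read were above background, numbers too small to set either apart.

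**Figure D3:**
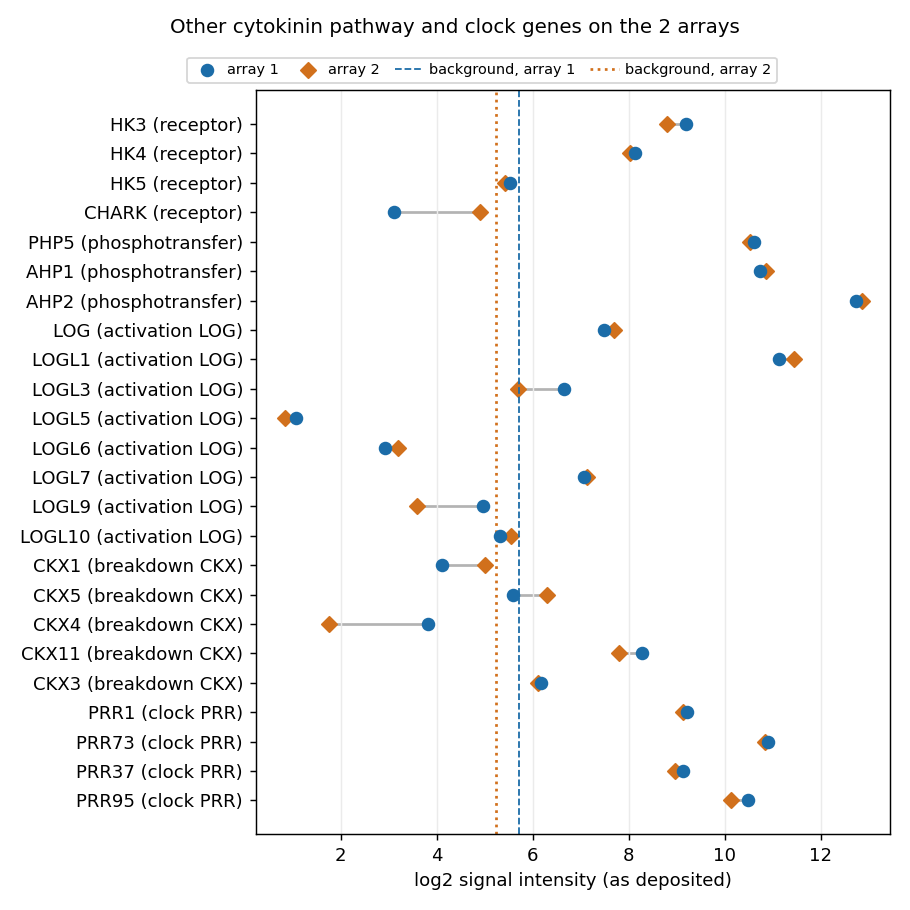
Log2 signal intensity (horizontal axis) of the other cytokinin pathway genes and the clock pseudo-response regulators (rows, with role), on array 1 (circles) and array 2 (diamonds), with each array's background as a vertical line. The 3 phosphotransfer and 4 clock genes lie to the right of both lines, while receptor, LOG and CKX genes lie on either side of them.

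Genes of cytokinin supply and breakdown were detected in part. Of 10 LOG and LOG-like genes, which release the active hormone from its nucleotide form, 8 were read and 4 were above background on both arrays (LOG, LOGL1, LOGL3 and LOGL7). Of 7 CKX genes, which encode the oxidases that break cytokinins down, 5 were read and 2 were above background on both arrays (CKX3 and CKX11). LOGL10 (39.8 and 46.7) and CKX5 (48.3 and 78.4) were above background on array 2 alone. These numbers are too small to set either role apart from the 74.1% of all genes. Some of these calls depended on the probe set. The second probe sets of LOG (23.5 and 15.8) and CKX11 (36.5 and 21.7) were below background on both arrays. That of LOGL7 (33.6 and 40.4) was below it on array 1. LOGL1 was read through a probe set with the ending _x_at. No gene of the table matched the name IPT, the enzyme of the first step of cytokinin synthesis. The pseudo-response regulators of the circadian clock share the receiver fold but not the phosphate relay. All 4 of them, PRR1, PRR37, PRR73 and PRR95, were above background on both arrays, beside 74.1% of all genes read. None was brighter on array 2, beside 46.4% of all genes read, and 4 genes are too few to set them apart.

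Marker genes of endosperm and of other tissues were read as well. How particular each marker is to its tissue could not be tested, since no other tissue was measured. The signal of a list, that of endosperm included, thus does not show which tissue it came from. All 4 endosperm markers read (SWEET11, SUT1, AGPS2 and SSI) were above background on both arrays, with a lowest signal of 6728.0, and the other 3 of the list had no single match by name. Also above background on both were 2 of 3 seed coat and nucellus markers (MADS21 and MADS29) and 3 of 3 green tissue markers, while MADS13 was so on array 2 alone and the meristem gene OSH1, at 1.16 and 11.7, on neither. On arrays 1 and 2 the summed signal was 46629.6 and 45351.9 for the endosperm markers read. It was 495.0 and 497.8 for seed coat and nucellus and 3117.3 and 3425.9 for green tissue. Most of the green tissue sum came from CAB2R, at 2746.8 and 2999.5. These sums are of different probe sets and are not compared as transcript amounts. The part of seed coat, nucellus or green tissue in the signals of the response regulators was not tested. A smaller part of the tissue that expresses a gene and less of its RNA in that part cannot be told apart in such samples.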

How the data were processed

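RNA of 2 endosperm samples was measured on 1 Affymetrix rice array each, after labelling with biotin by a 3' IVT kit, per the labels' protocols. The authors deposited a linear signal intensity for each probe set on each array, made with MAS5 per the submitters' processing notes, of unstated version and settings. Detection calls were not used. Each array had a mean of 500.1 once the extreme 2% of its values at either end were left out. With 2 arrays, their number limits the precision.

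The log2 of these intensities was taken with no further normalization for 57194 rice probe sets of 57381. Names came from the platform annotation of 2016 (22436 probe sets with 1 gene, 95 with several), joined by gene number to the gene table of ASM3414082v1, used for names and gene order. No member was listed on a probe set with several genes. Genes with several probe sets were read through 1 of them, by suffix (_at, _a_at, _s_at, _x_at) and then by highest mean. All members read are named, as are all receptor and phosphotransfer genes; the other roles are counted, with those above background named. The members and lists were chosen with earlier results of these data known. With 1 group no test between groups was made. The steps were tested on simulated data. Alternatives were other backgrounds, probe set choices, quantile normalization, an offset of 16 and each array alone. Python 3.11.15, pandas 2.3.3, NumPy 2.4.6 and, for plots, matplotlib 3.10.9 were used.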

Additional observations from a re-analysis of the deposited data

How the results depend on the processing

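The count of response regulators above background was 10 of 13 and ranged from 8 to 13 over the alternatives. Taking the highest reporter probe set for the limit left 8, as RR9 and RR23 dropped out (65.5% of all genes were then above it), and the count was 13 with the median reporter probe set (88.3% of all genes). With array 1 alone it was 10 (75.6% of all genes). With array 2 alone it was 11 (78.2% of all genes), RR1 being the gene added. The type A count was 3 of 6, and it was 6 with the median reporter probe set and 2 with the highest one; with 1 array left out it was 3 and 4. The brightest probe set or the mean of probe sets changed no member, since each had 1. The median log2 signal of the members ran from 8.70 to 8.72 with each array alone and was 8.71 after quantile normalization. The median difference between the arrays was 0.21 over the members, beside -0.02 over all genes read. For the members it was 0.24 after quantile normalization, 0.21 with an offset of 16 and 0.03 with members not above background left out. All 6 type A genes stayed brighter on array 2 under quantile normalization. The offset cannot change the sign of a difference, so it could not test this. Under quantile normalization the small differences of RR22 (0.02) and RR42 (-0.01) changed sign, and those of the dim RR1, RR2 and RR4 rose to 1.12, 0.76 and 1.36, which put RR1 past 2-fold too. With the offset RR4 fell to 0.61 and RR1 to 0.63, so that neither was past 2-fold. No paired analysis was possible because there was 1 group. Signals near the reporter background, those of RR1, RR2, RR4, RR9 and RR23, are the least certain.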
